A study of Saccharomyces cerevisiae with 14 samples.

Results

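The state of budding yeast 120 min after a pulse of rapamycin was compared with the steady state before the pulse. The comparison rests on 4 of the 14 arrays, namely the single array taken at 120 min, from fermentation BY005, and the 3 arrays of the steady state, which came from BY005 and from fermentations BY006 and BY007. It covers every probe set that names a single Saccharomyces cerevisiae gene, which is 5498 of the 10928 probe sets and 5449 genes. The arrays of BY005 alone, 120 min against its own steady state, are given as a pair beside the comparison. Arrays at 24 min (3 fermentations) and 56 min (BY005) serve to show where 120 min differs from earlier times.

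All cultures were of the wild-type strain YSBN6, in batch fermentors at 30 °C and pH 5, where a defined minimal medium held glucose at 20 g/L and glutamine at 1 g/L. The 120 min group was 1 sample of BY005, drawn 120 min after rapamycin had been added to 400 µg/L near an optical density of 1, while the culture grew exponentially. The steady-state group was 1 sample of each of the 3 fermentations, drawn 10 min before the same addition. Each fermentation was a separate culture, and no array came from a culture left without rapamycin, so effects of rapamycin and of time in batch culture cannot be told apart. The question was how far the transcriptome of the late, slow-growth state lies from that of growing cells.

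Rapamycin binds the prolyl isomerase Fpr1, and the complex inhibits the TOR complex 1 kinase, which couples growth to the supply of nutrients. When the kinase is active, yeast makes ribosomal proteins and the large set of nucleolar factors that process ribosomal RNA and assemble the subunits. When it is inhibited, the GATA factors Gln3 and Gat1 turn on genes for poor nitrogen sources (nitrogen catabolite repression), the factors Msn2 and Msn4 turn on stress genes, and autophagy begins.

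Levels are log2 of the deposited RMA intensity, and a difference of 1 between levels is a 2-fold change. Probe sets for fission yeast, which should not bind this RNA, gave the background, with a median of 4.44 and a 95th percentile of 5.63. Differences were fitted with limma over all 14 arrays, and a gene counts as changed at an adjusted p under 0.05. The 120 min group has 1 array, so its differences lack a replicate check: the spread is borrowed from the replicated times, and the lone array is assumed to vary like them. In RNA of a whole culture, fewer cells with a transcript and less of it per cell cannot be told apart, and RMA sets all arrays to one overall distribution, so a change in total mRNA per cell would not show. The 3 steady-state arrays correlated with each other across genes at 0.994 or more, and the 120 min array with them at 0.851 to 0.852. The median SD of a gene at steady state was 0.0672 (n = 3). Hybridisation controls averaged 11.23 on the 120 min array, against 11.81, 11.23 and 9.61 at steady state, and for ACT1 the 3′ probe set exceeded the 5′ one by 0.67 against 0.63, 0.63 and 0.77. Of 7 genes specific to a cells, 7 were above background on all 4 arrays, with the receptor gene STE2 at 14.07 at 120 min against 13.65 to 13.68 at steady state. Most genes were above background, however: of all 5449, 99 had means below it in both states, 51 at steady state only and 14 at 120 min only. Of 4 genes specific to alpha cells, the pheromone genes MF(ALPHA)1 and MF(ALPHA)2 lay near background, at 5.71 and 6.56 at 120 min against 5.52 to 6.70 and 6.36 to 6.87 at steady state. The other two lay above it, with the receptor gene STE3 at 7.81 against 8.34 to 8.68 and the agglutinin gene SAG1 at 10.45 against 9.57 to 9.78. The labels used here give no mating type.

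At 120 min 2254 genes (41.4% of those tested) had risen and 1380 (25.3%) had fallen relative to steady state, together 66.7%. At an unadjusted p under 0.05 there were 3784 in both directions. Changes of at least 2-fold were found for 642 higher genes (11.8%) and 549 lower ones (10.1%), or 21.9% of all. Of these, 181 rose and 205 fell at least 4-fold, 68 rose and 49 fell at least 8-fold, and 17 rose and 10 fell at least 16-fold. The BY005 pair, which has no test, put 669 genes (12.3%) at least 2-fold higher and 568 (10.4%) at least 2-fold lower. The median difference over all genes was 0.15, with quartiles at -0.29 and 0.58. Scaling the arrays by their hybridisation controls, which spread widely among arrays, left 8 genes that rose and 9 that fell, in place of 2254 and 1380.

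**Figure D1:**
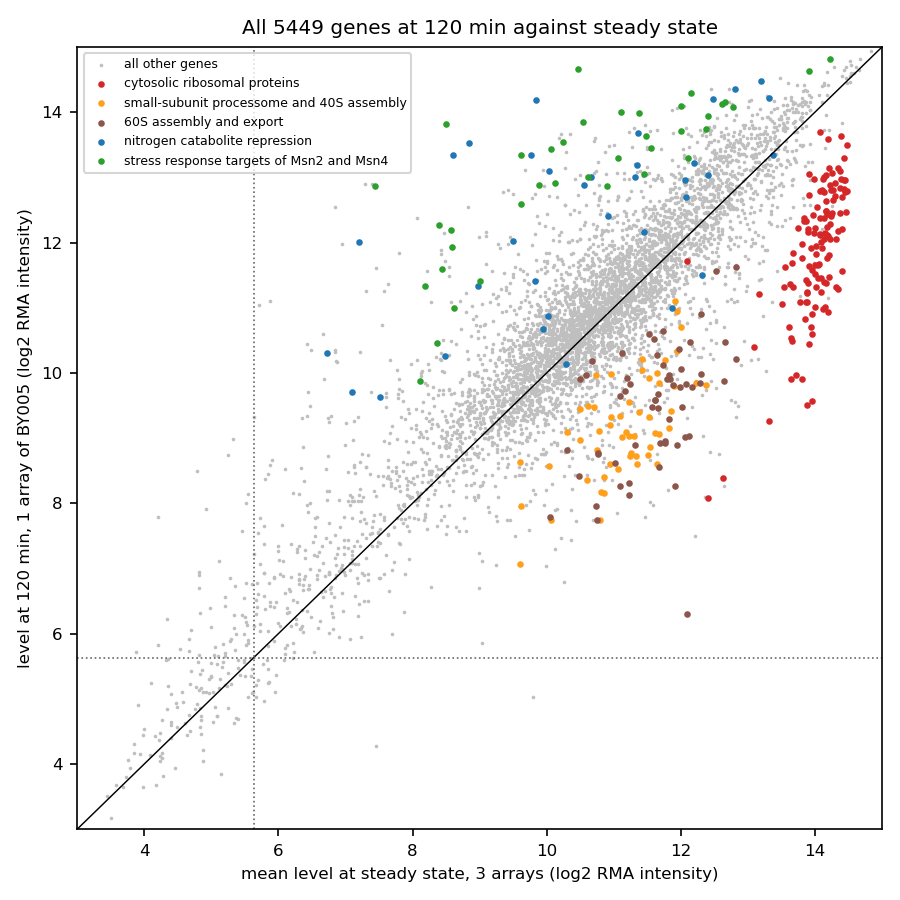
Level of each of the 5449 genes on the 120 min array (y axis) against its mean on the 3 steady-state arrays (x axis), both in log2 RMA intensity. The solid line marks equal levels and the dotted lines the background at 5.63; 5 gene lists are coloured. The 127 ribosomal protein genes and the assembly genes lie under the line, and the stress genes and most nitrogen genes lie above it.

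The 15 largest rises among genes above background in both groups took in a hexose transporter, nitrogen genes, stress and stationary-phase genes. HXT5, a hexose transporter of slow-growing cells, stood at 12.54 at 120 min, against 7.16 (BY005), 6.54 (BY006) and 6.83 (BY007) before the pulse, the order kept below. The 120 min level was far above all 3, and the rise was 5.70 ± 0.28 (SE), or 51.9-fold, with an adjusted p of 6.8e-07. LEE1, a zinc-finger gene of unknown function, stood at 12.90 against 7.14, 7.46 and 7.27, a 48.8-fold rise (adjusted p = 7.7e-06). GDH3, an isozyme of the NADP-dependent glutamate dehydrogenase, stood at 12.90 against 7.58, 7.28 and 7.32 (45.5-fold, adjusted p = 2.5e-06). The groups did not overlap for any of these genes, which were picked for the size of the rise, so this adds no support. GPG1, proposed as a subunit of the G protein of the glucose-sensing receptor, rose 42.8-fold, and FMP16, whose product was found in mitochondria, 39.8-fold. MLS1, malate synthase of the glyoxylate cycle, had 11.04 against 5.93, 5.44 and 5.77, so that its 40.2-fold rise started at the edge of background. MOH1, needed for survival in stationary phase, stood likewise at 11.10 against 6.16, 5.59 and 5.87, and rose 37.4-fold. PHM8, a lysophosphatidic acid phosphatase, rose 33.0-fold, and the oligopeptide transporter gene OPT2 28.1-fold. The proline permease PUT4, the GATA repressor DAL80 and the allantoate permease DAL5 rose 26.8, 25.7 and 20.4-fold. The vacuolar mannosidase AMS1, the small heat shock protein HSP26 and the desiccation protein SIP18 completed the group at 19.8, 18.5 and 17.7-fold. In the BY005 pair these 15 differences ran from 3.64 for SIP18 to 5.76 for LEE1.

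The 15 largest falls among genes above background in both groups were led by DBP2, a DEAD-box RNA helicase, which stood at 6.30 at 120 min, against 12.21, 12.05 and 12.02 at steady state. That is a fall by 5.79 ± 0.15 (SE), or 55.4-fold, with an adjusted p of 1.8e-08, and it brought the gene near background. RKI1, ribose-5-phosphate isomerase of the pentose phosphate pathway, had 7.49 against 12.28, 12.19 and 12.17, a 26.3-fold fall (adjusted p = 6.2e-08). NSR1, the yeast nucleolin, had 8.26 against 12.68, 12.57 and 12.66, a 20.9-fold fall with the larger SE of 0.54. Of the 15, 8 were ribosomal protein genes, namely RPL9A, RPS26B, RPS9A, RPL22B, RPS22B, RPL17B, RPL12A and RPL13A, with falls between 13.4 and 20.8-fold. URA7, which makes CTP, stood at 8.10 against 12.47, 12.33 and 12.28 and fell 19.2-fold. INA1, of unknown function, fell 14.1-fold, and the nucleolar chaperone SRP40 and the RNA-binding protein SRO9 fell 12.7-fold each. None of the 15 had overlapping levels in the 2 groups, but they were picked for the size of the fall, so this adds no support.

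**Figure D2:**
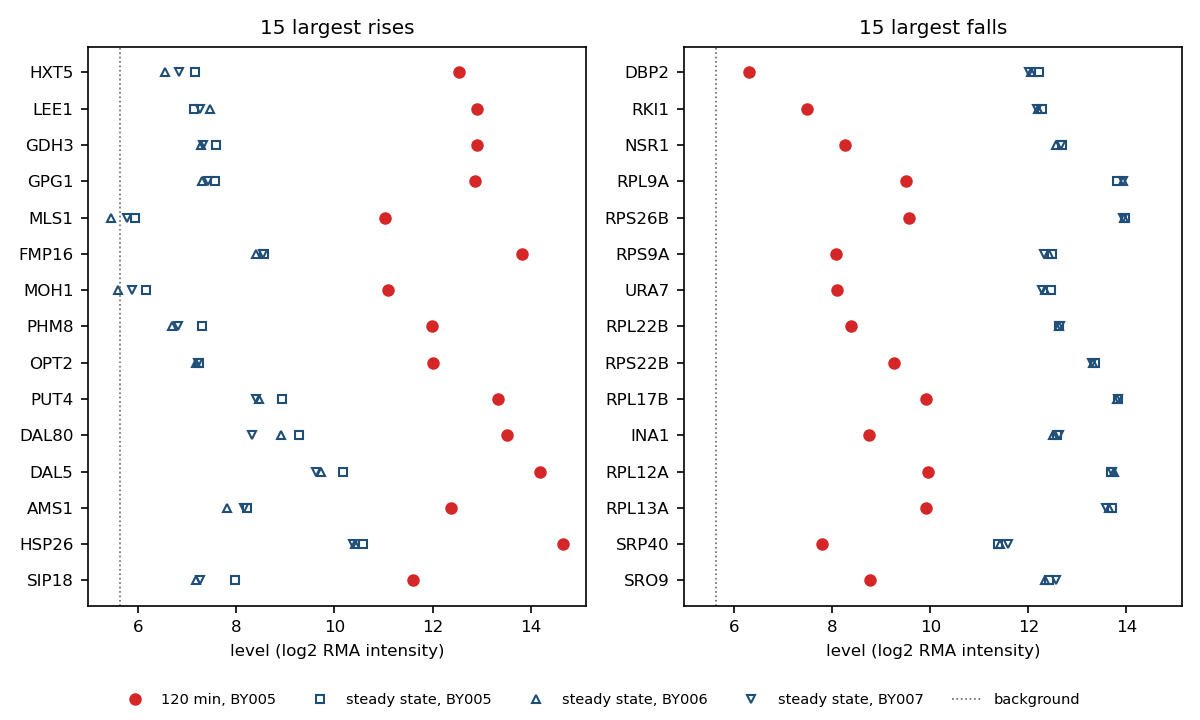
Level (log2 RMA intensity) on the 120 min array of BY005 (filled red) and on the arrays of the 3 fermentations at steady state (open blue), for the 15 genes with the largest rise and the 15 with the largest fall. The dotted line is the background at 5.63. The steady-state arrays lie close together for the genes that fell and spread more for DAL80, PHM8 and SIP18.

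For some genes the mean lay below background in a single state. Individual arrays could still lie above it, as steady-state arrays of YKL107W did, at 5.67 and 5.69 against 5.63. A mean below background was found at steady state only for 51 genes, at 120 min only for 14, and in both for 99. Of the first kind, YKL107W, of unknown function, was brightest at 120 min, with 9.32 against 5.67, 5.69 and 5.52, at least 12.9-fold higher (adjusted p = 2.4e-06). SHH3, a relative of a succinate dehydrogenase subunit, was at least 10.2-fold higher, the peroxisomal thiolase POT1 at least 8.61-fold, GAC1, which directs protein phosphatase to glycogen synthase, at least 7.32-fold, and YGL258W-A at least 5.71-fold. In the other direction YMR230W-A, a short reading frame of unknown function, stood at 5.03 against 9.93, 9.79 and 9.66, at least 17.9-fold lower. YGL188C-A was at least 3.55-fold lower, and YNR066C and the meiotic splicing factor MER1 at least 1.25 and 1.16-fold lower from steady-state levels near background. The call on MER1 was lost with a block for the fermentation (adjusted p = 0.084).

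Ribosomal protein genes were lower at 120 min without exception. All 127 measured genes of 137 fell, 121 of them at least 2-fold, with a median difference of -2.00 against 0.15 for all genes. Over all genes 25.3% fell, 10.1% at least 2-fold. Their levels ran from 8.08 through a median of 12.05 to 13.69 at 120 min, against medians of 14.06, 14.08 and 14.09 on the steady-state arrays. The large subunit (75 genes, median -2.02) and the small subunit (52 genes, median -1.97) differed little in this. RPL37A, nearest the median of the list, had 12.15 against 14.10, 14.17 and 14.19, a 4.01-fold fall (adjusted p = 1.2e-07), and RPL3, a large-subunit protein, fell 4.24-fold. Falls of at least 4-fold were found for 65 genes and of at least 8-fold for 19, beside 205 and 49 of all 5449 genes. At steady state 104 of the genes lay within 1 log2 unit of the brightest gene, where a fall may be understated.

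Ribosomal protein genes also set 120 min apart from 24 min. Against the 3 arrays of 24 min, 123 were lower and 0 higher, with a median of -1.54, where 18.2% of all genes were lower and 28.4% higher. Over time their median level in BY005 was 14.06 before the pulse, 13.70 at 24 min, 11.59 at 56 min and 12.05 at 120 min. All 127 genes were lower at 120 min than their means at both steady state and 24 min. Against the single array of 56 min, 79 were higher and 12 lower, with a median of 0.40, where 9.95% of all genes were higher and 7.87% lower. RPL9A fell furthest from the 24 min level, with 9.50 at 120 min against 13.37, 13.64 and 13.59 at 24 min (difference -4.03 ± 0.10 (SE), adjusted p = 2.9e-08). RPS22B was among the 12, with 9.26 at 120 min against 11.12 at 56 min (difference -1.86, adjusted p = 5.2e-05). The comparisons with steady state, 24 min and 56 min share the 120 min array and are not independent of each other.

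Most ribosomal proteins are encoded by a pair of near-identical genes, and the copies often fell by different amounts. Both copies were measured for 50 pairs, with a median gap of 0.89 between their differences, and in 22 the gap exceeded 1. RPS26B stood at 9.57 at 120 min, against 13.96, 13.95 and 13.93, and fell by 4.38, while RPS26A fell by 1.70. RPL9A fell by 4.38 and RPL9B by 1.96. RPL15A had 11.58 against 13.92, 13.98 and 13.99, and fell by 2.38, while RPL15B, at 11.71 against 12.05, 12.08 and 12.13, fell by 0.37, the smallest change on the list. Coming next, RPS30A fell by 0.39 and RPS23A by 0.60. Of the 22 pairs, 8 have a copy whose probe set is marked as shared with other genes, RPS26A and RPS23A among them, and 14, such as RPL9 and RPL15, have none. How far shared signal sets the gaps was not tested.

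**Figure D3:**
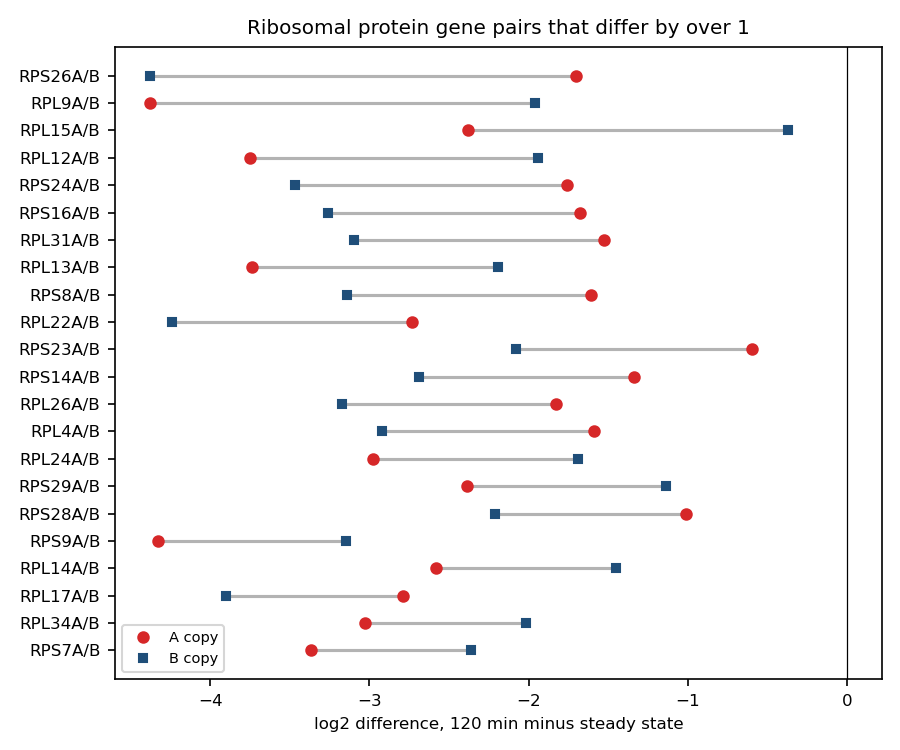
Difference in level, 120 min minus steady state (log2), of the A copy (red circles) and the B copy (blue squares) in the 22 ribosomal protein gene pairs whose copies differ by over 1. All points lie left of 0, and the widest gap, in RPS26, runs from -4.38 to -1.70.

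The genes that build ribosomes had fallen as well, and most of those for subunit assembly stood above their levels at 24 min. Over all genes 25.3% fell, 10.1% at least 2-fold. All 55 genes of the small-subunit processome and 40S assembly fell, 51 at least 2-fold (median -2.09), and 57 of the 59 genes of 60S assembly and export fell, 53 at least 2-fold (median -2.09). The others, RPF1 (-0.62, adjusted p = 0.28) and SSF2 (-0.50), did not pass. PWP2, a processome subunit, had 7.74 at 120 min against 10.71, 10.84 and 10.84 at steady state, an 8.31-fold fall (adjusted p = 0.00038). UTP13 and UTP14, of the same complex, fell 8.20 and 6.84-fold, and SOF1, at the median of the list, stood at 9.09 against 11.09, 11.21 and 11.25. On the 60S side the helicase DBP3 fell 12.6-fold, NOP7, which acts on the 27S precursor, 8.66-fold, and NOP12 4.25-fold. All 9 genes of the snoRNP core, which guide modification of ribosomal RNA, and nucleolin fell (median -2.59), including the fibrillarin gene NOP1 (9.45-fold), NOP58 (7.18-fold) and SNU13 (6.03-fold).

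Against 24 min, 51 of the 55 small-subunit genes were higher and 0 lower (median 2.05), and 52 of the 59 60S genes were higher and 1, DBP2, lower (median 1.71). Of the 9 snoRNP genes 4 were higher and 1, SNU13, lower (median 0.67), and NOP1, NOP56 and SNU13 lay below both their 24 min and steady-state means. Against 56 min, 34 of the small-subunit and 45 of the 60S genes were higher and 0 lower. The shares over all genes were 28.4% higher and 18.2% lower than at 24 min, and 9.95% and 7.87% than at 56 min. In 54 of the 55 and 55 of the 59, the 120 min level lay between the 24 min mean and the steady-state mean, and in the other 1 and 4 it lay below both. The median level of the small-subunit list in BY005 was 11.24 before the pulse, 8.30 at 14 min, 7.53 at 24 min, 7.92 at 56 min and 9.09 at 120 min. At 24 min BY005 lay above the others for this list, with a median of 7.53 against 7.00 in BY006 and 6.92 in BY007. RPF1, a 60S assembly factor, rose most over the 24 min level, with 9.96 at 120 min against 7.10, 5.78 and 5.76 at 24 min (difference 3.74 ± 0.48 (SE), adjusted p = 0.00043). PUF6, which binds mRNA and 60S precursors, stood at 9.83 against 7.07, 5.91 and 5.74, and TRM11, of the tRNA methylation machinery, at 8.90 against 6.70, 5.47 and 5.10. Both were still lower than at steady state: PUF6 fell by 2.25 and TRM11 fell by 2.03. In BY006 and BY007 the 24 min levels of RPF1, PUF6 and TRM11 lay near or below the background at 5.63. The size of these rises is thus uncertain, and BY005, which gave the 120 min array, started higher.

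**Figure D4:**
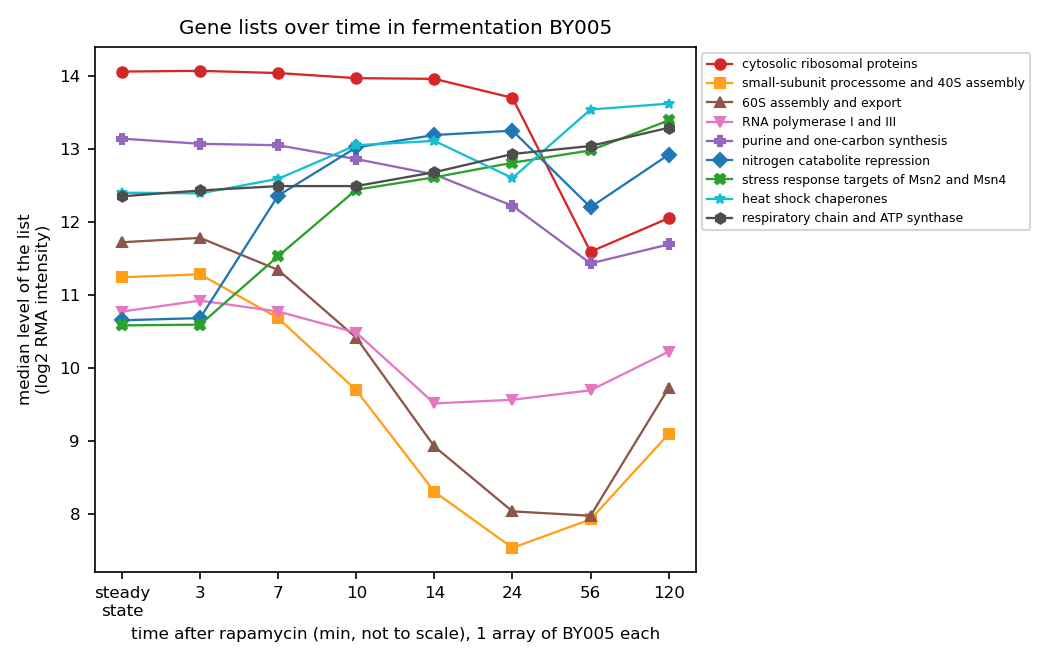
Median level of the genes of 9 lists (log2 RMA intensity, y axis) on the 8 arrays of BY005 in order of time (x axis, not to scale). The assembly lists are lowest at 24 and 56 min and higher at 120 min, whereas the ribosomal protein list drops between 24 and 56 min and reaches 12.05 at 120 min.

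The enzymes that transcribe ribosomal and transfer RNA were mostly lower. Of 36 genes of RNA polymerase I and III and their factors, 23 fell and 5 rose (median -0.87). Over all genes 25.3% fell and 41.4% rose. Polymerase I subunits led, with RPA49 at 8.20 against 11.91, 11.80 and 11.72 (12.2-fold, adjusted p = 5.3e-05), RPA135 (9.53-fold), RPA43 (7.30-fold) and the largest subunit, RPA190 (6.20-fold). The polymerase III subunit RPC82, nearest the median, fell 1.84-fold. The 5 that rose were the TFIIIC subunits TFC3, TFC4 and TFC6, the TFIIIB subunit BRF1, and MAF1, the repressor of polymerase III (difference 0.81). Against 24 min 25 of the 36 were higher and 1 lower, where 28.4% of all genes were higher and 18.2% lower. Translation factors followed, with 31 of 35 lower and 2 higher (median -0.71): the initiation scaffold TIF4631 fell 4.10-fold and the eIF3 subunit NIP1 3.87-fold, whereas HEF3, a second elongation factor 3, rose 4.84-fold. ANB1, an eIF5A gene, fell 1.64-fold, a call lost with a block for the fermentation (adjusted p = 0.053). Of 20 cytosolic aminoacyl-tRNA synthetases 18 fell and 0 rose (median -0.67), among them MES1 (2.65-fold), WRS1 (2.46-fold), CDC60 (2.06-fold) and ILS1 (1.60-fold). Mitochondrial ribosomal proteins had 8 genes higher and 13 lower of 54 (median -0.09, and 0.01 with a scaling by the fission yeast probe sets). The share of this list that fell was near the 25.3% over all genes, and the share that rose was under the 41.4% over all genes. MRPL31 fell 2.38-fold and MRPL16 rose 1.61-fold.

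Genes under nitrogen catabolite repression were higher in the main. Of 34, 30 rose, 23 of them at least 2-fold, and 2 fell (median 1.70). Over all genes 41.4% rose, 11.8% at least 2-fold, and 25.3% fell. DAL80 stood at 13.52 at 120 min, against 9.28, 8.91 and 8.32 at steady state, a rise by 4.68 ± 0.52 (SE) with an adjusted p of 6.8e-05. GLN1, glutamine synthetase, had 14.20 against 12.46, 12.54 and 12.44 (3.29-fold, adjusted p = 5.2e-06). GAP1, the general amino acid permease, and MEP2, an ammonium transporter, were bright in both states and rose 1.85 and 2.45-fold. Those that fell were MEP3, another ammonium transporter (difference -0.88), and the arginase CAR1 (-0.82).

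Nitrogen genes did not stand alike relative to 24 min. Of the 34, 3 were higher and 12 lower (median -0.07), and against 56 min 3 were higher and 0 lower. Over all genes 28.4% were higher and 18.2% lower than at 24 min, and 9.95% and 7.87% than at 56 min. UGA4, a permease for gamma-aminobutyrate, stood at 10.26 at 120 min, against 13.62, 13.56 and 13.60 at 24 min and 8.57, 8.51 and 8.39 at steady state. It was thus lower than at 24 min (difference -3.33, adjusted p = 0.0017) and higher than at steady state (1.76, adjusted p = 0.021). The allantoin permease DAL4 and the allantoin-degrading enzymes DAL1 and DAL2 showed the same order, with differences from 24 min of -3.06, -2.28 and -1.81 and from steady state of 3.57, 2.11 and 2.37. GUD1, guanine deaminase, and DCG1 of the allantoin gene cluster were lower than at 24 min by -2.08 and -2.01. For DAL5, DAL80, PUT4, DIP5, GAP1, MEP2 and GLN1 the difference from 24 min lay between -0.19 and 0.15 and did not pass. GDH2, the NAD-dependent glutamate dehydrogenase, was higher than at 24 min, by 1.49 (adjusted p = 1.2e-06).

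Among transporters controlled by the amino acid sensor Ssy1 or by other means, the lowest relative to steady state were BAP2, GNP1 and BAP3. BAP2, a permease for branched-chain amino acids, stood at 6.79 against 10.06, 10.09 and 10.62, an 11.1-fold fall (adjusted p = 3.3e-06). The glutamine permease GNP1 had 9.49 against 12.83, 12.85 and 12.90 (10.3-fold), and BAP3 5.86 against 8.96, 8.55 and 9.59 (9.02-fold), close to background at 120 min. This list of 16 genes includes the sensor gene SSY1 itself (difference 0.33, adjusted p = 0.04). On it 7 fell and 6 rose, beside 25.3% and 41.4% of all genes. The list median of -0.09 turned to 0.01 with a scaling by the fission yeast probe sets and to 0.02 with a block for the fermentation. MUP1, the methionine permease, was lower than at steady state by -1.10 but higher than at 24 min by 2.27 (adjusted p = 0.00023).

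The listed stress genes under Msn2 and Msn4 rose without exception. All 38 targets of Msn2 and Msn4 were higher, 36 at least 2-fold, with a median of 2.37. Over all genes 41.4% rose, 11.8% at least 2-fold. Levels on the list of targets had a median of 13.39 at 120 min, against 10.58, 10.53 and 10.70 at steady state. HSP26 stood at 14.67, against 10.59, 10.42 and 10.37, near the brightest gene of the array. XBP1, a repressor made under stress and starvation, had 10.99 against 8.48, 8.61 and 8.79 (5.15-fold, adjusted p = 0.00014). The catalase CTT1 rose 10.3-fold, whereas HSP12, already at 13.89 to 13.95 at steady state, rose 1.64-fold. Against 24 min 18 of the 38 were higher and 0 lower, beside 28.4% and 18.2% of all genes. All 38 levels lay above both the 24 min and the steady-state mean.

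Heat shock chaperones stood above both steady state and 24 min. Of 28, 26 rose over steady state, 12 at least 2-fold (median 0.84), where 41.4% and 11.8% of all genes did so. Against 24 min 27 were higher and 0 lower (median 0.83), beside 28.4% and 18.2% of all genes. The median level of the chaperones in BY005 was 12.40 before the pulse, 13.11 at 14 min, 12.61 at 24 min, 13.54 at 56 min and 13.62 at 120 min. HSP30, a heat shock protein of the plasma membrane, stood at 12.55 at 120 min, against 8.27, 9.45 and 8.81 at 24 min and 8.83, 8.96 and 8.69 at steady state. Its differences were 3.71 ± 0.63 (SE) from 24 min (adjusted p = 0.0018) and 3.72 from steady state (adjusted p = 0.00079). The inducible Hsp70 gene SSA4 had 13.61 against 10.24, 10.12 and 10.18 at steady state (10.8-fold, adjusted p = 6.5e-08), and the Hsp40 gene SIS1 rose 1.80-fold. BTN2, a sorting factor for misfolded proteins, and FES1, an exchange factor of Hsp70, were above 24 min by 2.28 and 1.27.

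Stationary-phase and reserve genes rose with them. Of 22 stationary-phase genes 17 rose and 1, the ammonia export gene ATO3, fell (median 1.18), beside 41.4% and 25.3% of all genes. SPG4 had 10.45 against 7.09, 6.27 and 5.91 (16.3-fold, adjusted p = 0.00019), and GIS1, a transcription factor for the post-diauxic shift, rose 2.40-fold. SNZ1, for vitamin B6 synthesis, stood at 9.93 against 10.07, 10.35 and 10.38 and did not pass (adjusted p = 0.10). Of 23 genes for trehalose and glycogen 21 rose and 0 fell (median 1.60). Glycogen phosphorylase, GPH1, stood at 13.67 against 10.17, 10.18 and 10.29 (11.0-fold, adjusted p = 4.5e-06), and the debranching enzyme GDB1 at 12.75 against 9.43, 9.49 and 9.55 (9.56-fold). TPS2, trehalose-6-phosphate phosphatase, rose 3.03-fold. Both breakdown and synthesis genes were among those that rose, with differences of 1.81 for glycogen synthase GSY2 and 1.70 for trehalase NTH1. Of 27 genes for oxidative stress defence 21 rose and 3 fell (median 0.81), led by CTT1 and the peroxiredoxin TSA2 (10.2-fold), with PRX1 at 4.49-fold and the peroxidase CCP1 at 1.76-fold.

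Protein breakdown genes were higher, the vacuolar ones by more than those of the proteasome. Of 32 autophagy genes 27 rose and 1, ATG10, fell (median 1.41), where 41.4% of all genes rose and 25.3% fell. ATG39, a receptor for autophagy of the nucleus, had 12.15 against 8.49, 8.38 and 8.53 (12.8-fold, adjusted p = 6.3e-06). The cargo receptor ATG34 rose 5.94-fold, ATG14 2.84-fold, and ATG8, whose product coats the autophagosome, 4.96-fold. All 12 vacuolar hydrolases and inhibitors measured rose (median 1.64), among them AMS1, the ribonuclease RNY1 (6.25-fold), proteinase B, PRB1 (4.50-fold), the carboxypeptidase CPS1 (2.94-fold) and proteinase A, PEP4 (1.96-fold). All 33 proteasome genes rose too, but 0 of them 2-fold (median 0.61, from 0.28 to 0.89), where 11.8% of all genes did so. PRE3 rose 1.86-fold, PRE6 1.53-fold, RPT2 1.72-fold and the transcription factor RPN4, which drives proteasome genes, 1.85-fold. Of 15 genes of the vacuolar proton ATPase 9 rose and 0 fell, with a median of 0.23 that became -0.12 under the hybridisation-control scaling. VMA13 and VMA4 rose 1.44 and 1.43-fold, VMA1 1.43-fold and VMA10 1.17-fold.

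**Figure D5:**
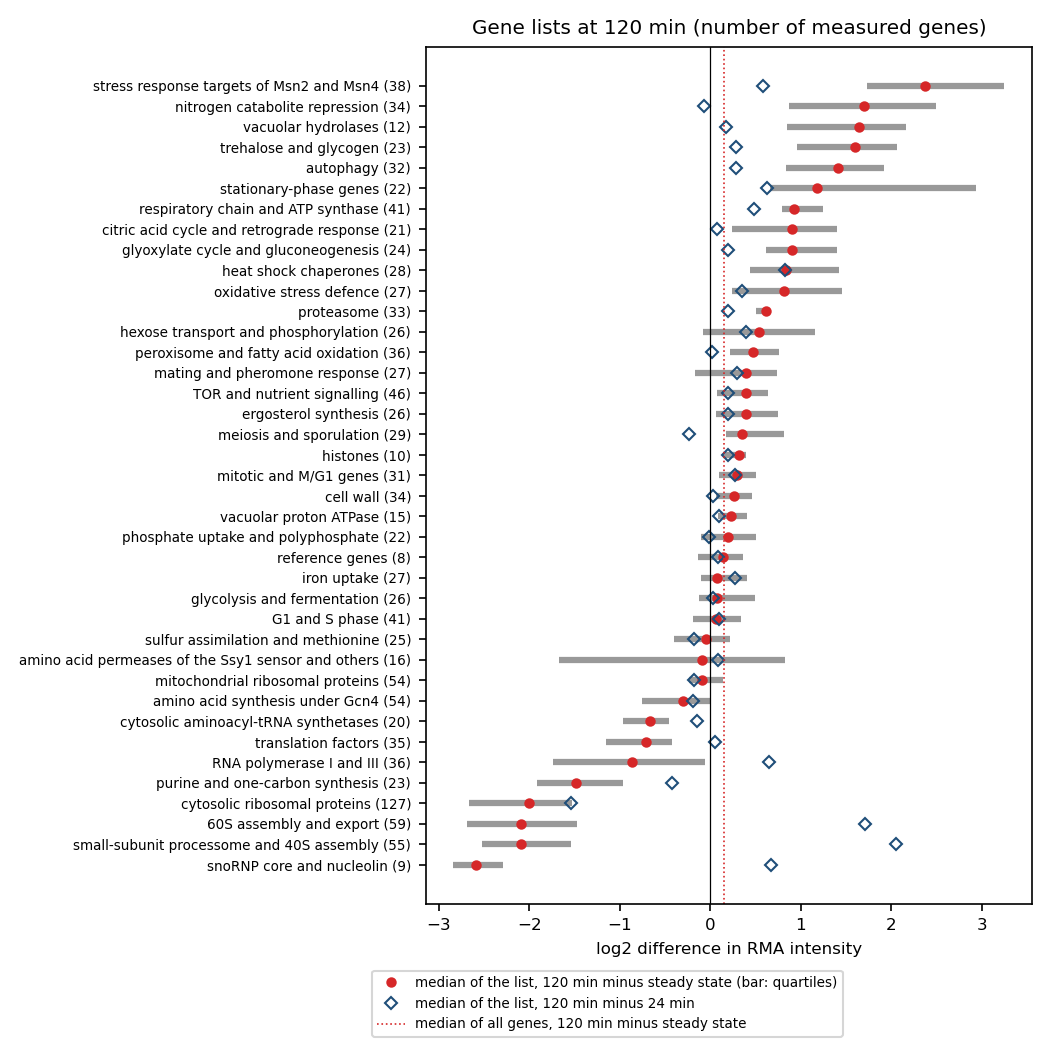
Median log2 difference of 39 gene lists, 120 min minus steady state (red circles, with quartiles as bars) and 120 min minus 24 min (open diamonds); the number of measured genes is in brackets. The assembly lists lie at -2.09 and the ribosomal protein list at -2.00 against steady state, but at 2.05, 1.71 and -1.54 against 24 min.

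Carbon metabolism changed in selected genes. Of 26 genes for hexose transport, sensing and phosphorylation 15 rose and 2 fell (median 0.54), and against 24 min 13 were higher and 4 lower. Over all genes the shares were 41.4% and 25.3% against steady state and 28.4% and 18.2% against 24 min. HXK1, a hexokinase of low-glucose growth, had 14.10 against 11.95, 12.07 and 11.99 (4.28-fold, adjusted p = 2.5e-05), while HXK2 stood at 13.43 against 13.60, 13.50 and 13.53 (adjusted p = 0.16). The transporter HXT3 stood at 14.11 against 13.54, 13.49 and 13.52 and rose 1.51-fold. HXT1, of low affinity, had 12.20 against 12.69, 12.53 and 12.64 and did not pass (adjusted p = 0.058), but it passed under 6 alternatives, with an adjusted p of 0.016 in the fit with a block for the fermentation. HXT7 rose 2.25-fold on a probe set marked as shared with other genes, and the glucose-signal corepressor MTH1 rose 3.82-fold. MIG2, a glucose repressor, rose 1.47-fold. HXT4 lay at 11.56 at 120 min, against 9.92, 9.95 and 9.69 at steady state and 9.25 at 56 min.

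Among 26 glycolytic and fermentation genes 10 rose and 3 fell, where 41.4% of all genes rose and 25.3% fell. The list median of 0.07 became -0.07 after quantile normalization restricted to genes and -0.28 under the hybridisation-control scaling. Alcohol dehydrogenase ADH1 stood at 14.55 against 14.47, 14.51 and 14.57, and pyruvate decarboxylase PDC1 at 14.60 against 14.50, 14.54 and 14.58, close to the top of the scale. The minor isozyme PDC6 had 11.84 against 8.01, 7.78 and 7.61 (16.4-fold, adjusted p = 5e-06), GPM2 rose 4.52-fold and TDH1 3.10-fold.

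Most respiratory genes rose and stood above 24 min as well. Of 41 genes of the respiratory chain and ATP synthase 39 rose and 1, the cytochrome c gene CYC1, fell (median 0.93). Over all genes 41.4% rose and 25.3% fell. Against 24 min 33 of the 41 were higher and 0 lower, beside 28.4% and 18.2% of all genes. NDE2, an external NADH dehydrogenase, stood at 10.60 against 7.04, 6.56 and 6.42 (15.2-fold, adjusted p = 2.4e-06). CYC7, the second cytochrome c, rose 5.86-fold, the ATPase inhibitor INH1 3.96-fold and QCR9, of complex III, 1.91-fold. Of 21 genes of the citric acid cycle and the retrograde response 16 rose and 0 fell (median 0.90), led by aconitase ACO1, with 13.39 against 10.86, 10.88 and 10.88 (5.74-fold, adjusted p = 1.8e-06), IDH1 (4.25-fold) and IDH2 (4.07-fold). IDP1 rose 1.86-fold. CIT2, the classical target of the retrograde response, had 12.02 at 120 min, against 13.17, 12.55 and 12.78 at 24 min, 13.54 at 56 min and 10.24, 10.11 and 10.23 at steady state. It was lower than at 24 min (adjusted p = 0.015) and at 56 min (adjusted p = 0.0057) and higher than at steady state (adjusted p = 9.7e-05).

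Genes for growth on other carbon sources mostly rose, beside 41.4% of all genes. Of 24 genes of the glyoxylate cycle and gluconeogenesis 20 rose and 3 fell (median 0.90). Besides MLS1, the carnitine carrier CRC1 rose 6.79-fold, the activator CAT8 5.02-fold and SIP4 1.92-fold. ICL1, isocitrate lyase, stood at 9.48 against 8.85, 8.84 and 8.86 (1.55-fold) and PCK1, of gluconeogenesis, at 8.99 against 7.69, 7.88 and 7.75 (2.33-fold). ADH2, an enzyme of ethanol use, had 7.63 against 8.84, 8.66 and 8.41 and fell 2.01-fold. Of 36 genes of peroxisomes and fatty acid oxidation 23 rose and 1 fell (median 0.47). POX1, acyl-CoA oxidase, was at least 3.84-fold higher, the transporter PXA2 rose 3.69-fold and the peroxin PEX8 1.39-fold.

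Purine synthesis had the lowest median of the metabolic lists. Of 23 genes for purines and one-carbon units 21 fell, 17 at least 2-fold, and 1 rose (median -1.48). The counts of this paragraph stand beside 41.4% of all genes that rose and 25.3% that fell, 10.1% at least 2-fold. The IMP dehydrogenase genes IMD4 and IMD3 had 9.33 against 12.86, 12.81 and 12.79 (11.2-fold) and 10.22 against 13.14, 13.17 and 13.14 (7.63-fold). SHM2, serine hydroxymethyltransferase, fell 4.93-fold and ADE1 2.78-fold. Of 54 amino acid synthesis genes under Gcn4, 33 fell and 12 rose (median -0.30). LEU9, an isopropylmalate synthase, stood at 9.03 against 12.33, 12.33 and 12.34 (9.86-fold, adjusted p = 1.9e-08), and LYS4 fell 3.04-fold, while the aminotransferase BAT2 rose 7.39-fold. ILV2 fell 1.25-fold, a call lost with the scaling by fission yeast probe sets, and GCN4 itself rose 1.28-fold. In sulfur assimilation 8 of 25 genes rose and 10 fell (median -0.05, and 0.04 with the fission yeast scaling), with SAM4 lower at 10.25 against 12.35, 12.20 and 12.20, STR2 and MHT1 1.99 and 1.87-fold higher, and MET3 at 13.34 against 13.37, 13.40 and 13.40. Of 26 ergosterol genes 18 rose and 0 fell (median 0.39), led by ERG28 (2.31-fold) and the activator UPC2 (2.17-fold), with ERG9 at 1.83-fold and ERG6 at 1.35-fold.

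Most cell cycle genes that changed did so by less than 2-fold, and over all genes 41.4% rose and 25.3% fell. Of 41 genes of G1 and S phase 9 rose and 6 fell, with a median of 0.06 that became -0.05 after quantile normalization restricted to genes and -0.28 under the hybridisation-control scaling. Of 31 mitotic and M/G1 genes 15 rose and 1 fell (median 0.30, and -0.04 under the hybridisation-control scaling). The G1 cyclin CLN3 had 11.35 at 120 min against 10.53, 11.18 and 11.35, within the range of steady state. CLN2 had 11.28 against 10.97, 11.05 and 11.21 (adjusted p = 0.18), and the mitotic cyclin CLB2 9.88 against 10.04, 9.91 and 10.02 (adjusted p = 0.41). Both G1 cyclins passed with a block for the fermentation, CLN2 with a difference of 0.32 (adjusted p = 0.016) and CLN3 with 0.65 (adjusted p = 0.04). PCL1 rose 1.72-fold, RFA1 1.52-fold, PIR3 2.14-fold, DBF2 1.79-fold, ASH1 1.76-fold and CTS1 1.23-fold, while CDC9, DNA ligase, fell 1.59-fold and GIC2 did not pass. Of 10 histone genes 7 rose and 0 fell (median 0.32, and -0.03 under the hybridisation-control scaling), led by CSE4, the centromeric histone (2.80-fold), HHO1 (1.79-fold) and HHT1 (1.32-fold), with HTA1 at 1.27-fold.

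Developmental and cell wall genes held single strong risers, while the shares that rose or fell are to be read beside 41.4% and 25.3% of all genes. RIM4, a translational repressor of meiosis, had 11.37 against 7.81, 7.50 and 7.62 (13.3-fold, adjusted p = 3.9e-06), in a list where 12 of 29 genes rose and 2 fell (median 0.35, and -0.02 after quantile normalization restricted to genes). SGA1 and NDT80 rose 3.71 and 3.44-fold, and SPO11 did not pass (adjusted p = 0.093). Of 27 mating genes 15 rose and 3 fell (median 0.39), with AGA1 2.51-fold, ASG7 2.08-fold, FIG1 1.91-fold and STE18 1.31-fold higher. Of 34 cell wall genes 19 rose and 4 fell (median 0.26, and -0.09 under the hybridisation-control scaling). GSC2, the glucan synthase of stress and sporulation, had 13.39 against 10.34, 10.29 and 10.24 (8.58-fold, adjusted p = 5.5e-07), SPI1 rose 7.85-fold and YGP1 7.40-fold. PIR1 did not pass (adjusted p = 0.082). UTR2, a cross-linking enzyme of the wall, stood at 10.88 against 13.07, 13.27 and 13.36, a 5.10-fold fall.

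Of 46 signalling genes of the nutrient pathways 29 rose and 7 fell (median 0.39), where 41.4% of all genes rose and 25.3% fell. MSN4 had 11.73 against 9.71, 9.92 and 9.90 (3.71-fold, adjusted p = 4.5e-05), the kinase subunit TPK2 rose 2.97-fold, RIM15, a kinase for entry into quiescence, 2.05-fold, TOR1 1.44-fold and the phosphatase PPH22 1.32-fold. TOD6, a repressor of ribosome assembly genes, stood at 7.50 against 9.57, 9.49 and 9.49 and fell 4.05-fold (adjusted p = 0.015). In phosphate metabolism 10 of 22 genes rose and 5 fell, near the shares over all genes (median 0.20, and -0.14 under the hybridisation-control scaling), with PHM8 far ahead and the acid phosphatase PHO3 and the transporter PHO84 7.14 and 2.95-fold lower. VTC1, for polyphosphate, rose 1.14-fold, a call lost with a block for the fermentation (adjusted p = 0.051). In iron uptake 9 of 27 rose and 6 fell (median 0.07, -0.05 after quantile normalization restricted to genes and -0.27 under the hybridisation-control scaling), with HMX1 3.01-fold and TIS11 2.82-fold higher, FIT3 2.71-fold lower and FRE2 not past the test. Of 8 common reference genes 4 rose and 1 fell (median 0.14, and -0.21 under the hybridisation-control scaling), with ACT1 at 14.45 against 14.15, 14.11 and 14.15, PDA1 1.57-fold and UBC6 1.42-fold higher, TRS65 1.67-fold lower and TFC1 not past the test.

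Set against 24 min over all genes, the 120 min array had 1545 higher genes (28.4%) and 990 lower ones (18.2%), of which 357 (6.55%) and 185 (3.4%) differed at least 2-fold. The split of calls depended on the scaling: it was 1338 higher and 1387 lower after the genes alone were quantile-normalized and 1920 and 671 with the scaling by fission yeast probe sets. Outside the groups above, YER053C-A, a short reading frame of unknown function, stood at 11.98 at 120 min, against 8.43, 8.29 and 8.16 at 24 min (difference 3.68 ± 0.43 (SE), adjusted p = 0.00025). Apart from UGA4, the largest falls were the ribosomal protein genes RPL9A, RPS26B (-3.70), RPS22B (-3.40) and RPL17B (-3.21).

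Against 56 min, 542 genes (9.95%) were higher and 429 (7.87%) lower, of which 185 (3.4%) and 48 (0.881%) differed at least 2-fold. Both sides of this comparison have 1 array. BFR2 and FAF1, named next, lay near the background of 5.63 at 56 min, so the size of their rises is uncertain. The largest rises were of ribosome assembly genes: BFR2 had 8.73 at 120 min against 5.68 at 56 min, NOP2 9.29 against 6.38, NSA2 9.98 against 7.18 and FAF1 8.57 against 5.83, with adjusted p from 0.00045 to 0.018. HSP30 rose by 2.73 over 56 min (adjusted p = 0.042), a call lost with a block for the fermentation (0.066). It was lost too without steady-state replicate 5, 6 or 7, without the 7 min array of BY005 or without the 24 min array of BY007, with adjusted p from 0.055 to 0.068. INO1, which makes inositol phosphate, fell furthest, with 9.00 at 120 min against 12.26 at 56 min, 11.10, 10.63 and 10.96 at 24 min and 8.33, 8.14 and 8.16 at steady state (difference from 56 min -3.26 ± 0.22 (SE), adjusted p = 9.6e-05). YPR078C (-2.47), DDI3 (-2.05, on a probe set marked as shared with other genes), UTR2 (-1.96) and YAL037C-A (-1.96) followed. UTR2 also lay below steady state, having stood at 12.84 at 56 min and at 12.92, 13.11 and 13.07 at 24 min.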

How the data were processed

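The arrays were of the type Affymetrix Yeast Genome 2.0. The deposited intensities were made by the authors with RMA, which corrects background, equalises the arrays' distributions and summarises each probe set, in affy and R 2.10.0, per the submitters' processing notes. They were on a linear scale, so log2 was taken. No detection calls, scan batches or sequences were used here. Probe sets of a gene were averaged (47 genes), and 128 carry a mark for probes shared with other genes.

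Differences were fitted with limma 3.58.1 in R 4.3.3 (lmFit, eBayes) over 14 arrays in 8 time groups without a block, with 6 residual and 2.43 prior degrees of freedom, and Benjamini-Hochberg adjustment over 5449 genes. Where a group's mean lay below 5.63, the fold is a bound against it. The number of arrays limits the precision, with a median SE of 0.103 against steady state and 24 min and 0.126 against 56 min.

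Samples of one fermentation came from one culture, which pairs them by design. The correlation of their deviations from the group means ran from -0.1644 to 0.5282. Between arrays of different fermentations and times it ran from -0.5193 to 0.3989. A fit with the fermentation as a block was an alternative.

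The members, the 39 lists and the rule for named genes were chosen with earlier results of these data known, so list counts are descriptions. The rule took the 15 largest rises and falls, the 5 brightest genes with the other group below background, the 5 largest each way against 24 and 56 min, per list the 3 largest changes and the gene nearest the median, and a set of 34 genes. Other list members named here were chosen after their values were seen. Alternatives changed the normalization, scaling, gene filters, prior and arrays. Promoter sequences were not analysed here.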

Additional observations from a re-analysis of the deposited data

Results flagged for a closer look

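Probe sets with no gene in the platform annotation used here lie outside the comparison. Of 3470, 582 were above background on at least one of the 4 arrays. Among the probe sets with no gene, 51 rose at least 2-fold over steady state at 120 min and 61 fell at least 2-fold, with p-values adjusted over the 3470 by limma. Of the 5449 genes 11.8% rose and 10.1% fell at least 2-fold. These probe sets are given as a count because no gene can be named for them.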

How the results depend on the processing

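With the fermentation as a replicate block, 2229 genes rose and 1435 fell against steady state (in place of 2254 and 1380), 611 and 557 of them at least 2-fold. Against 24 min the block gave 1531 and 1170, and against 56 min 598 and 523. Of 182 named genes that passed against steady state it lost ANB1, MER1 and VTC1. CLN2, CLN3, HXT1, PIR1, SNZ1 and SPO11, which did not pass, did so under at least 1 alternative. Leaving out 1 steady-state array gave 2083 to 2193 genes that rose against steady state and 1303 to 1338 that fell. Without steady-state replicate 7 the call on MER1 was lost, as with an intensity trend in the prior. Scaling by the hybridisation controls, whose 9 probe sets spread widely among arrays, left 8 genes that rose and 9 that fell against steady state (8 and 9 at least 2-fold), 0 and 1 against 24 min (0 and 1), and 0 and 0 against 56 min (0 and 0). It moved the median of all genes to -0.20, -1.25 and 0.62, from 0.15, 0.07 and 0.00. Of the named calls 160 no longer passed and 5 turned to ACT1 -0.02, CTS1 -0.04, HTA1 -0.00, VMA10 -0.12 and VTC1 -0.15. Quantile normalization of the genes alone gave 88 genes lower than at 56 min by at least 2-fold, in place of 48, and lost FIG1 and VTC1. The fission yeast scaling lost ILV2 and MER1; it put the median of all genes at 0.24. The causes were not tested. A fit on the arrays of 120 and 56 min alone has no degrees of freedom, and the promoter motif alternative was not run. Falls of the brightest genes and changes near background are limited by the signal range.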

Other observations

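Isozymes of one reaction stood apart at 120 min in some families and not in others. The families were chosen after their values were seen, and the difference between members was not tested. BAT2, the cytosolic branched-chain aminotransferase, had 13.61 at 120 min against 10.85, 10.58 and 10.73 at steady state, whereas BAT1, the mitochondrial one, had 12.37 against 13.57, 13.64 and 13.67 (differences 2.89 and -1.26). LEU9 fell by 3.30 while LEU4, its partner in leucine synthesis, stood at 13.43 against 13.11, 13.11 and 13.11, a rise by 0.32 (adjusted p = 0.0016). GDH3 rose by 5.51, GDH2 by 2.32 and GDH1, the main enzyme of glutamate synthesis, by 0.33. CYC7 rose by 2.55 and CYC1, at 11.38 against 12.10, 12.16 and 11.99, fell by 0.70. NDE2 rose by 3.93 and NDE1, at 12.13 against 12.27, 12.23 and 12.19, did not pass (adjusted p = 0.24). GSC2 rose by 3.10, while the main glucan synthase FKS1 had 13.41 against 13.62, 13.58 and 13.56 (adjusted p = 0.17). HEF3 rose by 2.28 and the main elongation factor 3, YEF3, fell by 0.69. SSA4 rose by 3.43, SSA1 by 1.04 and SSA3 by 0.77, and SSA2 had 14.26 against 14.19, 14.16 and 14.19. The citrate synthases all rose, CIT1 by 1.67, CIT2 by 1.83 and CIT3 by 0.85. SSA2 was within 1 log2 unit of the brightest gene, where a rise can be understated, and near-identical members can share signal.

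Some genes that changed alike were neighbours. Of 5017 pairs of adjacent measured genes, both rose at least 2-fold in 111 (2.21%) and both fell in 83 (1.65%). Of single genes 11.8% rose and 10.1% fell at least 2-fold, but shares of pairs cannot be read directly against shares of single genes. Whether neighbours changed alike more often than other pairs was not tested. Runs of at least 3 included DDR48, PAI3, SIP18 and YMR175W-A, with rises of 1.13, 3.87, 4.15 and 2.61, and the allantoin genes DAL1, DAL4 and DAL2. Among the falls were RPA43, RPA190 and YOR342C (-2.87, -2.63 and -1.40) and RRP5 and RPS10B (-2.55 and -1.83) beside YMR230W-A, which was at least 17.9-fold lower. Overlapping reading frames can share signal, and how far this sets the runs was not tested.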
